A study of Mus musculus with 9 samples.

Results

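The 82 genes described here encode heat shock proteins, other chaperones of the same families and 2 heat shock factors, and they were taken from 24454 genes in the count table by symbol alone. The rule takes symbols that start with Hspa, Hspb, Hsph, Hsp90a, Dnaja, Dnajb or Dnajc, the Cct genes, and Tcp1, Hspd1, Hspe1, Stip1, Hsf1 and Hsf2. It leaves out 4 genes of the endoplasmic reticulum (Hspa5, Dnajb9, Dnajb11 and Dnajc3). The label of cytosolic chaperones does not hold for every gene the rule takes. Hspa9, Hspd1, Hspe1, Dnaja3, Dnajc15 and Dnajc19 belong to mitochondria, Hspa13, Dnajc1 and Dnajc10 to the endoplasmic reticulum, and Hspbp1 and Hspbap1 share only the start of their symbol with the small heat shock proteins. Of the 82 genes, 74 had enough counts to be tested, among 16964 genes tested in all.

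RNA was sequenced from ICR mouse embryos that had been cultured as zygotes to the 2-cell stage; there were 3 groups of 3 libraries, with 3 embryos pooled for every library. The control group carries no treatment in the labels. The glucose group was loaded with high glucose, and the serum group was loaded with glucose in the same way and also received rat serum carrying an agent that the labels name only as ZGW. Concentrations are not given, and neither is whether the first 2 groups received rat serum without the agent, so serum and agent cannot be told apart in this design. The labels call the libraries biological replicates without naming the matings behind them.

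Chaperones bind proteins that are unfolded or newly made and keep them from aggregating. Hsp70 proteins hold a client in an ATP-driven cycle that J-domain proteins start and exchange factors such as Hsp110 end, the adaptor Stip1 (also called Hop) links Hsp70 to Hsp90, and the ring-shaped chaperonin TRiC folds actin and tubulin. Heat shock factor 1 drives many of these genes under stress by binding repeated GAA units called heat shock elements. In mouse embryos the stress-inducible Hsp70 genes Hspa1a and Hspa1b are known among the first genes transcribed when the embryonic genome is activated, and Hsf1 is known as a gene whose product the oocyte has to supply.

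Library totals ranged from 11934924 to 16916343 counts. Levels are in CPM, the usual unit of count relative to library size, after TMM scaling. Libraries of a group differed by far more than counting error, with a chi-square per degree of freedom from 50.9 to 136, and control replicate 1 and ZGW serum replicate 3 lay furthest apart on the first principal component. The oocyte and 2-cell marker genes summed to 62567 to 71736 CPM in control, 46108 to 60033 in the glucose group and 70865 to 102243 in the serum group, with 19 of 20 above 10 CPM, so that the glucose libraries lay below all others. The 6 sperm markers, 0 of them above 10 CPM, summed to 8.48 to 12.8, 3.67 to 9.61 and 13.7 to 25.7 CPM in the same order of groups, highest in the serum libraries. The 13 markers of stroma and epithelium, 0 above 10 CPM, summed to 3.47 to 27.1 CPM over all libraries. None of 14 cumulus and granulosa markers had a mean above 10 CPM (0 of 14), and their sums ran from 10.7 to 38.5 CPM. Of 9 blood markers, 3 were above 10 CPM, and the list summed to 237 to 367 CPM in control, 86.4 to 309 in the glucose group and 324 to 531 in the serum group. All 9 blood markers, haemoglobin Hba-a1 foremost, had counts. The part of these markers' differences in the results below was not tested.

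The chaperone genes took 0.419%, 0.423% and 0.455% of the counts in the control libraries, 0.503%, 0.445% and 0.438% in the glucose group and 0.382%, 0.428% and 0.366% in the serum group. The means were 0.432% ± 0.0199, 0.462% ± 0.0360 and 0.392% ± 0.0325 (SD, n = 3). In these shares, which are not TMM-scaled, the high glucose libraries lay above the ZGW serum libraries without overlap, and the control libraries overlapped with both. After TMM scaling the summed levels were 4425 ± 198 CPM in control, 4696 ± 553 in the glucose group and 3790 ± 133 in the serum group (SD, n = 3). On this scale the ZGW serum libraries lay below those of both other groups without overlap. By summed CPM, class C J-domain proteins made up the largest family, at 1454 ± 71.4 in control, 1584 ± 183 in the glucose group and 1257 ± 111 in the serum group (SD, n = 3).

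Levels of different genes were compared per kilobase of exon, with the exons of all annotated transcripts of a gene joined. In control embryos Dnajc8, a J-domain protein of the splicing machinery, stood at 184 ± 18.7 CPM per kilobase and Hspe1, the cap of the mitochondrial chaperonin, at 167 ± 8.64, and their libraries overlapped. Dnaja2, a J-domain partner of cytosolic Hsp70, followed at 103 ± 11.4 CPM per kilobase, apart from its neighbours on both sides. Hsp90aa1, the inducible cytosolic Hsp90, was next at 72.8 ± 7.14, and among the 30 highest genes each one from there down overlapped with the next in the order. Dnajb6 (52.7 CPM per kilobase), Stip1 (52.3), Hsp90ab1 (36.3), Dnajc21 (35.6), Dnajb1 (33.8) and the constitutive Hsp70 gene Hspa8 (33.5) completed the upper ranks together with the germ cell gene Dnajc5b (41.9). The inducible Hsp70 genes were low, at 3.56 ± 0.502 for Hspa1b and 1.08 ± 0.258 for Hspa1a (SD, n = 3). Values for Hsp90aa1, Hspa8, Hspe1, Hspa1a, Hspa1b, Hspd1 and Hspb1 are uncertain, because 47.5%, 39.4%, 22.8%, 66.3%, 62.3%, 42.1% and 50.1% of their 50-base stretches also occur in other transcripts. Of the 82 genes, 19 shared over 10% of their stretches in this way.

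**Figure D1:**
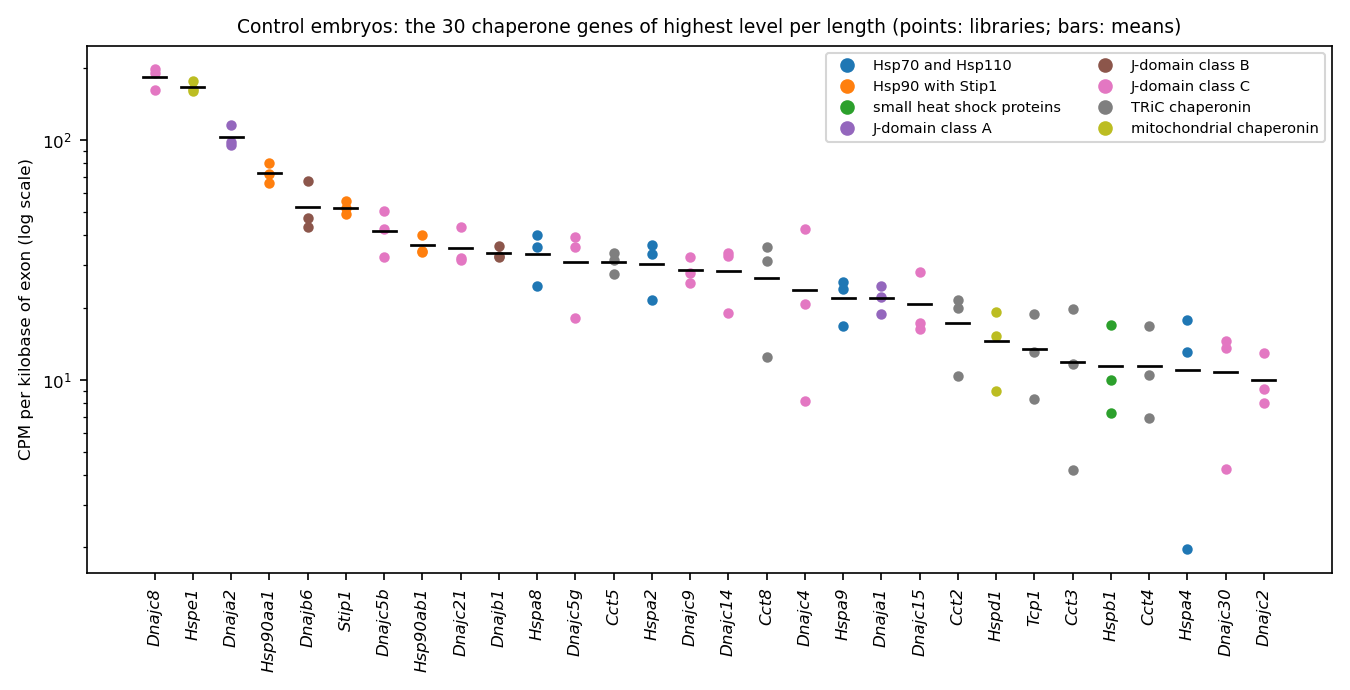
Level per length of the 30 chaperone genes with the highest mean in control embryos, in CPM per kilobase of exon on a log axis, with 1 point per library, a bar at the mean and colours by family. Dnajc8, Hspe1 and Dnaja2 lead, and Hspa4, Cct3 and Dnajc4 show the widest spread between the 3 libraries.

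Heat shock elements were looked for in the RefSeq promoter windows of GRCm38.p6, which run from 250 bases before to 50 after a start site and were at hand for 66 of the 82 genes. Cct4, Dnajc11, Dnajc12, Dnajc18, Dnajc2, Dnajc22, Dnajc30, Dnajc5, Dnajc5b, Hsf1, Hsp90aa1, Hsp90ab1, Hspa13, Hspa8, Hspa9 and Hspb2 were not searched. A longer motif, GAANNTTC extended by NNGAA, was searched on both strands and found for Dnajb6, Hspd1, Hspe1 and Hsph1, or 6.06% of the 66 genes, against 0.662% of 27025 genes with a window. A shorter motif, GAANNTTC or TTCNNGAA, which the longer one contains, was found for 20 of the 66 (30.3%) against 17% of all genes. Hspd1 and Hspe1 lie head to head on chromosome 1 and their windows share 285 bases, so these count as 1 site. The sites of the longer motif are shown because they are the only ones among the chaperone genes with a window, on the strand of the gene and with the motif in capitals. They lie at chr1:55088053-55088082 on the plus strand for Hspe1, where 2 motifs overlap from 89 to 72 bases before the start, at chr5:149636279-149636308 on the minus strand for Hsph1, and at chr5:29735844-29735873 on the plus strand for Dnajb6.
Hspe1: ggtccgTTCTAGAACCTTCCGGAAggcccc
Hsph1: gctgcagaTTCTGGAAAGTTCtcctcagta
Dnajb6: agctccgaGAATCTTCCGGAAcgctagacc

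The stretches before the start sites of Stip1 and Dnajb1 are shown because these were among the genes furthest down in the serum group, and that of Hspa1b because it was furthest up against control by p-value. Stip1 is read at chr19:7040027-7040276 on the minus strand, Dnajb1 at chr8:83607972-83608174 on the plus strand and Hspa1b at chr17:34959239-34959488 on the minus strand. Hspa1b holds 1 shorter motif, in capitals, and neither motif occurs in the windows of Stip1 and Dnajb1, which says only that these letters are absent there. The shorter motif was also found for Cct5, Dnaja1 and Hspb1, which were lower in the serum group than in control, and for Hspa1a, which was higher. Whether the motif goes with the direction of a difference was not tested. The matching 250 bases of Hspa1a, the neighbour of Hspa1b, are the same at 247 positions (98.8%).
Stip1: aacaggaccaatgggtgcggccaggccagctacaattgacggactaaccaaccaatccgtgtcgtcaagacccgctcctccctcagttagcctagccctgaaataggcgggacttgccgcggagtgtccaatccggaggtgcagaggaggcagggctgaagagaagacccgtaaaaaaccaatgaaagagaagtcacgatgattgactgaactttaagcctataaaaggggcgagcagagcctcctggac
Dnajb1: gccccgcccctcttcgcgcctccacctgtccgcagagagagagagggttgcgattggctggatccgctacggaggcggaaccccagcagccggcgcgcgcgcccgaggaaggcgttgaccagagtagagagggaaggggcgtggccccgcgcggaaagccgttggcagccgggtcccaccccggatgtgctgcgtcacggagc
Hspa1b: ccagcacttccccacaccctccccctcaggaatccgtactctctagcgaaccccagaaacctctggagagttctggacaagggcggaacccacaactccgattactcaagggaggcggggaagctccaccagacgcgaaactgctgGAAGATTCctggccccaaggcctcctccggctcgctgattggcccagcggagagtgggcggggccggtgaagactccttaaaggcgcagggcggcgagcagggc

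The first comparison sets glucose-loaded embryos beside control embryos and asks how chaperone transcripts differ. No clear shift of the set was seen: 39 of the 74 tested genes were higher and 35 lower, with a median log2 fold change of 0.02, and over all genes tested 51% were lower with a median of -0.02. The J-domain genes Dnajc21 and Dnaja2 and both Hsp90 genes had higher means, while Hspa4 and the mitochondrial genes Dnajc30, Dnajc19 and Hspe1 had lower ones. Mitochondrial genes did not move together, with log2 fold changes of 0.38 for Hspd1, 0.15 for Hspa9, 0.002 for Dnaja3 and -0.48 for Dnajc15. The edgeR quasi-likelihood test after Benjamini-Hochberg adjustment called 0 of 74 chaperone genes, against a background of 0%. At an unadjusted p under 0.05, 2 genes were higher (2.7%, background 3.88%), Dnaja2 and Dnajc21, and 1 was lower (1.35%, background 3.5%), Hspbp1. DESeq2 called 0 of the chaperone genes (background 0.818%), and limma-voom called 0 (background 0%). At an unadjusted p under 0.05, DESeq2 gave 5 of 73 chaperone genes (6.85%, background 10.1%) and limma-voom 3 of 74 (4.05%, background 8.18%). The 3 libraries of each group did not overlap for 6 genes that were higher (8.11%, background 6.84%) and 4 that were lower (5.41%, background 6.91%).

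Dnajc21, a J-domain protein of ribosome assembly, encoded on chromosome 15, was at 154, 150.4 and 207 CPM in control and at 311, 267 and 258 in the glucose group, and in the serum group at 186, 191 and 129. The high glucose libraries stood above those of both other groups. Over control this was a log2 fold change of 0.71 ± 0.26 (SE; edgeR adjusted p = 0.627). Dnaja2 was at 291, 283 and 345 CPM in control, at 517, 411 and 395 in the glucose group and at 323, 262 and 354 in the serum group, again without overlap between high glucose and the other groups. Its log2 fold change over control was 0.53 ± 0.23 (edgeR adjusted p = 0.672). Hspa12a, a distant relative of Hsp70, was at 7.30, 10.8 and 1.83 CPM in control and 30.3, 13.9 and 12.6 in the glucose group, a log2 fold change of 1.51 ± 0.73 (edgeR adjusted p = 0.697) that was 0.99 without high glucose replicate 1. The 3 genes were higher in each high glucose library than in any control library.

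Hspa4, an Hsp110-type exchange factor, was at 10.9, 98.5 and 72.0 CPM in control and at 15.9, 38.6 and 13.8 in the glucose group. Control replicate 1 was below every high glucose library, so the groups overlapped. The log2 fold change of -1.41 ± 0.77 (edgeR adjusted p = 0.727) was -0.86 without control replicate 2. Dnajc30, a J-domain protein of mitochondria, was at 24.2, 22.6 and 7.02 CPM in control and 7.34, 6.39 and 3.02 in the glucose group, and its log2 fold change was -1.68 ± 0.83 (edgeR adjusted p = 0.701), with 24.3% of its stretches shared with other transcripts. Dnajc19, part of the motor that draws proteins into mitochondria, was at 39.3, 34.6 and 37.4 CPM in control and 13.2, 24.2 and 33.1 in the glucose group, without overlap. The log2 fold change of -0.66 ± 0.41 (edgeR adjusted p = 0.771) was -0.37 without high glucose replicate 1 and -0.99 without high glucose replicate 3.

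By family, Hsp70 and Hsp110 genes were higher in 9 of 12 (median log2 fold change 0.38), but in 7 of 12 with a median of 0.07 without control replicate 1. Hsp90aa1 and Hsp90ab1 with Stip1 were higher in 3 of 3, at 0.35, 0.52 and 0.14 on the log2 scale. Hsp90aa1 was at 284, 259 and 315 CPM in control and 385, 381 and 326 in the glucose group, without overlap. TRiC subunits were higher in 3 of 9 (median -0.29), small heat shock proteins in 1 of 6 (-0.45), class A J-domain proteins in 3 of 4 (0.07), class B in 5 of 9 (0.04) and class C in 12 of 25 (-0.22). Single libraries turned most of these directions. TRiC subunits were higher in 5 of 9 (0.07) without control replicate 3, and class C genes in 15 of 27 (0.04) without control replicate 2. Without high glucose replicate 1, small heat shock proteins were higher in 4 of 7 (0.01) and class B genes in 3 of 10 (-0.34). Class A genes were higher in 1 of 4 (-0.125) without control replicate 1. Hsf1 was at 40.3, 51.1 and 74.3 CPM in control and 45.2, 63.7 and 61.9 in the glucose group, a log2 fold change of 0.04 ± 0.32. The inducible Hspa1a was at 2.77, 2.76 and 4.09 CPM in control and 6.05, 4.62 and 4.65 in the glucose group, higher without overlap but at a low level, and Hspa1b overlapped. Their log2 fold changes were 0.67 ± 0.68 for Hspa1a and 0.59 ± 0.57 for Hspa1b.

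**Figure D2:**
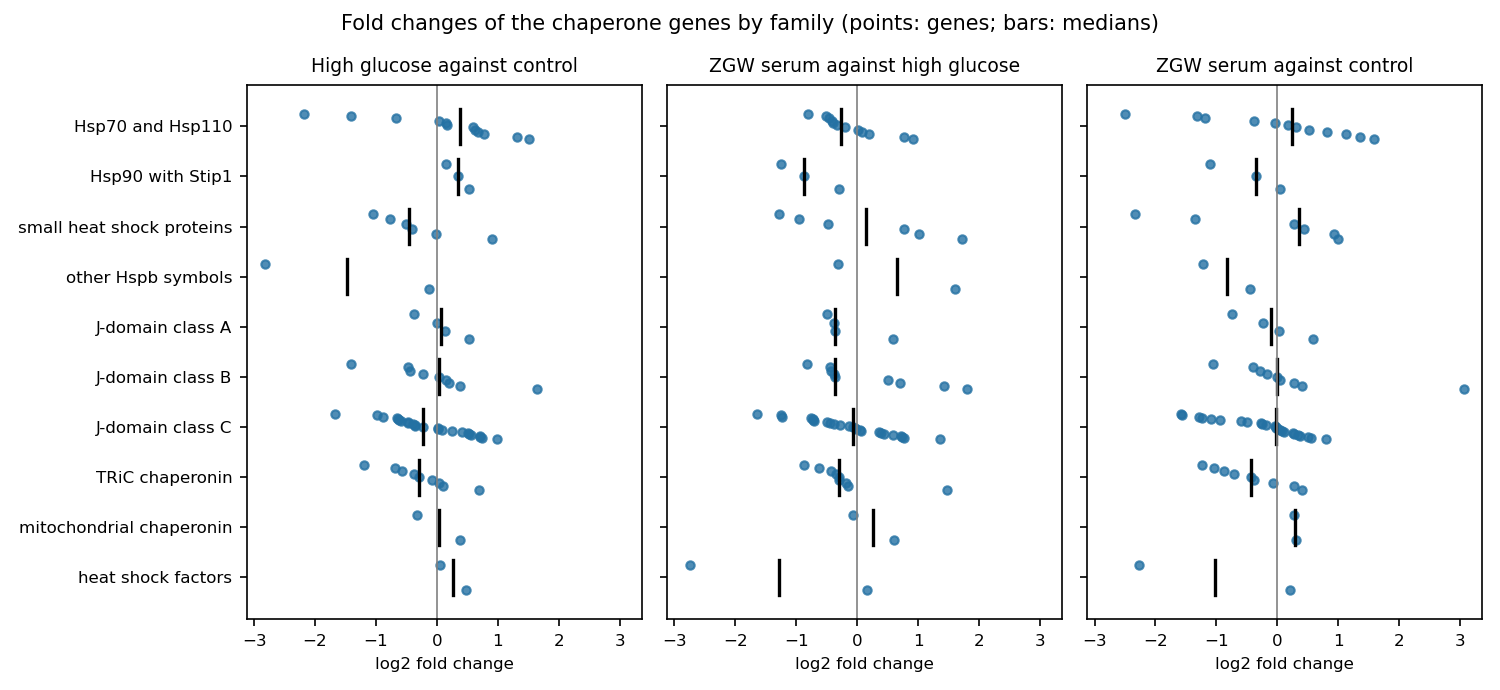
Log2 fold changes of the 74 tested chaperone genes by family in the 3 comparisons, with 1 point per gene and a bar at the median of the family. Each group of libraries is used in 2 of the 3 comparisons. For ZGW serum against high glucose, 3 of 3 Hsp90 and Stip1 points and 8 of 9 TRiC points lie below 0.

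The second comparison asks how the serum group differs from the glucose group, both loaded with glucose. More chaperone genes were lower than higher: 47 of 74 tested (63.5%) with a median log2 fold change of -0.29, beside 49.9% lower and 0.00 over all genes. Among the lower genes were some of the chain from Hsp70 to Hsp90, with Stip1 2.37-fold, Hsp90ab1 1.83-fold, the J-domain protein Dnajb1 1.77-fold and the adaptor Dnajc7 3.14-fold lower. Hspe1 was 1.51-fold higher. The inducible Hsp70 genes Hspa1a and Hspa1b also had higher means, at log2 fold changes of 0.92 ± 0.68 and 0.78 ± 0.57, and their libraries overlapped. Without ZGW serum replicate 3 the median was -0.11, with 45 of 77 genes lower, and among genes averaging 10 CPM or more the background itself leaned down, with 59.7% of 7535 genes lower (median -0.14) beside 68.6% of 51 chaperone genes (median -0.31). Counting every one of the 82 genes with no filter on low counts, 54 were lower.

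The edgeR quasi-likelihood test after Benjamini-Hochberg adjustment called 0 of 74 chaperone genes in this comparison (background 0%). At an unadjusted p under 0.05, 7 were lower (9.46%, background 4.89%), namely Cct5, Dnajb1, Dnajc21, Dnajc7, Hsf2, Hsp90ab1 and Stip1, and 2 were higher (2.7%, background 3.8%), Hspb7 and Hspe1. The libraries of the groups did not overlap for 11 genes that were lower (14.9%, background 8.26%) and 5 that were higher (6.76%, background 9.08%). DESeq2 called Stip1 alone of the chaperone genes (DESeq2 adjusted p = 0.00019) among 241 genes called (background 1.5%), and limma-voom called 0 (background 0%). At an unadjusted p under 0.05, DESeq2 gave 14 of 73 (19.2%, background 11.8%) and limma-voom 15 of 74 (20.3%, background 9.66%).

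Stip1 lies on chromosome 19 at chr19:7020702-7039967 on the minus strand (GRCm38). It was at 109.8, 117 and 103 CPM in control, at 139.8, 114 and 111 in the glucose group and at 49.3, 58.2 and 46.1 in the serum group. Every ZGW serum library was below every other library. The means were 110.1 ± 7.01, 122 ± 15.8 and 51.2 ± 6.27 CPM (SD, n = 3), and the log2 fold change over high glucose was -1.25 ± 0.25 (SE; edgeR adjusted p = 0.37). Over 17 other settings of the analysis it ran from -1.35 to -1.14, with adjusted p from 0.00019 with DESeq2 to 0.851.

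Dnajc7, which carries a J-domain and the same kind of repeat with which Stip1 binds Hsp70 and Hsp90, lies on chromosome 11 (chr11:100582818-100620168). It was at 35.7, 17.5 and 66.2 CPM in control, 46.0, 41.7 and 38.8 in the glucose group and 16.97, 8.19 and 15.2 in the serum group. The ZGW serum libraries lay below all others, and control varied widely. Dnajc7 had a log2 fold change over high glucose of -1.65 ± 0.50 (edgeR adjusted p = 0.465). Hsp90ab1, the constitutive cytosolic Hsp90 on chromosome 17 (chr17:45567775-45573271), was at 104, 102 and 121 CPM in control, 210.3, 104 and 156 in the glucose group and 77.2, 75.6 and 104 in the serum group. High glucose replicate 2 and ZGW serum replicate 3 nearly met, at 104.4 and 103.9 CPM. Its log2 fold change was -0.87 ± 0.30 (edgeR adjusted p = 0.489), and -0.61 without high glucose replicate 1.

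Dnajc21 and Dnaja2, both high under glucose alone, were lower in the serum group by -0.73 ± 0.26 and -0.50 ± 0.23 on the log2 scale, to means of 168 ± 34.3 and 313 ± 46.8 CPM beside control means of 170.2 ± 31.5 and 306 ± 33.8 (SD, n = 3). These comparisons share the high glucose libraries. Dnajc2, a ribosome-bound J-domain protein, was at 64.9, 45.9 and 40.1 CPM in control, 86.5, 65.3 and 62.7 in the glucose group and 44.0, 33.5 and 54.6 in the serum group, without overlap between the last 2 groups (log2 fold change -0.70 ± 0.33).

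On the higher side Hspe1, on chromosome 1 (chr1:55088132-55091307), was at 261, 237 and 240.1 CPM in control, 195, 170.1 and 225 in the glucose group and 278, 259 and 357 in the serum group. The high glucose libraries were the lowest 3 of the 9. Over high glucose it differed by a log2 fold change of 0.60 ± 0.23 (edgeR adjusted p = 0.533). Its partner in the mitochondrial chaperonin and neighbour on the chromosome, Hspd1, was at 50.9, 23.7 and 40.1 CPM in control, 61.5, 43.0 and 45.0 in the glucose group and 68.2, 44.4 and 29.3 in the serum group, and all groups overlapped (-0.08 ± 0.41). Within a library the ratio of Hspe1 to Hspd1 per length was 5.69 to 8.97 in the glucose group, 9.19 to 17.9 in control and 7.30 to 21.8 in the serum group. This ratio was chosen after the values were seen, and both genes share sequence with other transcripts.

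Dnajc15, a J-domain protein of mitochondria, was at 106, 184 and 113 CPM in control, 115, 87.3 and 87.0 in the glucose group and 153, 224 and 102 in the serum group. The groups overlapped, and the log2 fold change over high glucose of 0.73 ± 0.34 (edgeR adjusted p = 0.583) was 0.41 without ZGW serum replicate 2. Dnajc19 was at 36.1, 30.5 and 54.0 CPM in the serum group, overlapping with high glucose, a log2 fold change of 0.78 ± 0.41 (edgeR adjusted p = 0.626) that was 0.49 without high glucose replicate 1.

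By family, TRiC subunits were lower in 8 of 9 (median -0.29), but in 5 of 9 with a median of -0.06 without ZGW serum replicate 3, where Tcp1 and Cct6a were at 11.7 and 4.00 CPM. Cct5 was furthest down (-0.87 ± 0.34) and the testis subunit gene Cct6b was the exception (1.48 ± 1.13). The summed level of the subunits was 396, 421 and 393 CPM in the glucose group and 306, 371 and 237 in the serum group, and 363, 402 and 604 in control. Although TRiC holds its subunits in equal number, the highest and the lowest subunit per length, leaving out the testis-type genes, differed by 5.57-fold to 22.6-fold within a library. This spread depends on the length used, which joins the exons of all annotated transcripts and ran from 2557 bases for Cct2 to 6778 for Cct7. The part of length in it was not tested. The Hsp90 genes with Stip1 were lower in 3 of 3 (median -0.87), also without ZGW serum replicate 3 (-1.01). Of these, Hsp90aa1 differed little, at 385, 381 and 326 CPM in the glucose group and 300, 397 and 187 in the serum group. Its groups overlapped (-0.305 ± 0.282), and its serum mean of 295 CPM was close to the control mean of 286. Lower genes numbered 7 of 12 in the Hsp70 and Hsp110 family (median -0.26) and 3 of 6 among small heat shock proteins (0.15). The latter family was formed by symbol and includes Hspb11, a subunit of the transport machinery of cilia (1.02 ± 0.59). In class A 3 of 4 were lower (-0.37), in class B 5 of 9 (-0.36) and in class C 15 of 25 (-0.06). These medians also moved with single libraries. The Hsp70 median was 0.04 without ZGW serum replicate 1, that of class C was 0.03 without high glucose replicate 2, and without high glucose replicate 1 those of small heat shock proteins, class A and class B were -0.999, -0.20 and -0.03.

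Hspa8 was at 139, 172 and 131 CPM in the glucose group and 104, 156 and 72.8 in the serum group, with overlap (-0.41 ± 0.32). Among the other Hsp70 relatives, Hspa9 of mitochondria was at 0.01 ± 0.37 on the log2 scale, Hsph1 at -0.20 ± 0.58, Hspa4 at 0.08 ± 0.75, Hspa4l at -0.47 ± 0.66, Hspa14 at 0.19 ± 0.86 and the testis-rich Hspa2 at -0.51 ± 0.57. Dnajb6, a suppressor of aggregation, was at 482, 227 and 275 CPM in the glucose group and 245, 186 and 296 in the serum group, with overlap (-0.44 ± 0.33). Hsf2, which acts in development and the germ line, was at 12.2, 14.9 and 2.69 CPM in the glucose group and 0.0789, 2.82 and 1.51 in the serum group (-2.74 ± 1.07), and ZGW serum replicate 1 held a single read of it. Hsf1 was at 59.0, 68.9 and 64.0 CPM in the serum group, a log2 fold change of 0.17 ± 0.32.

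**Figure D3:**
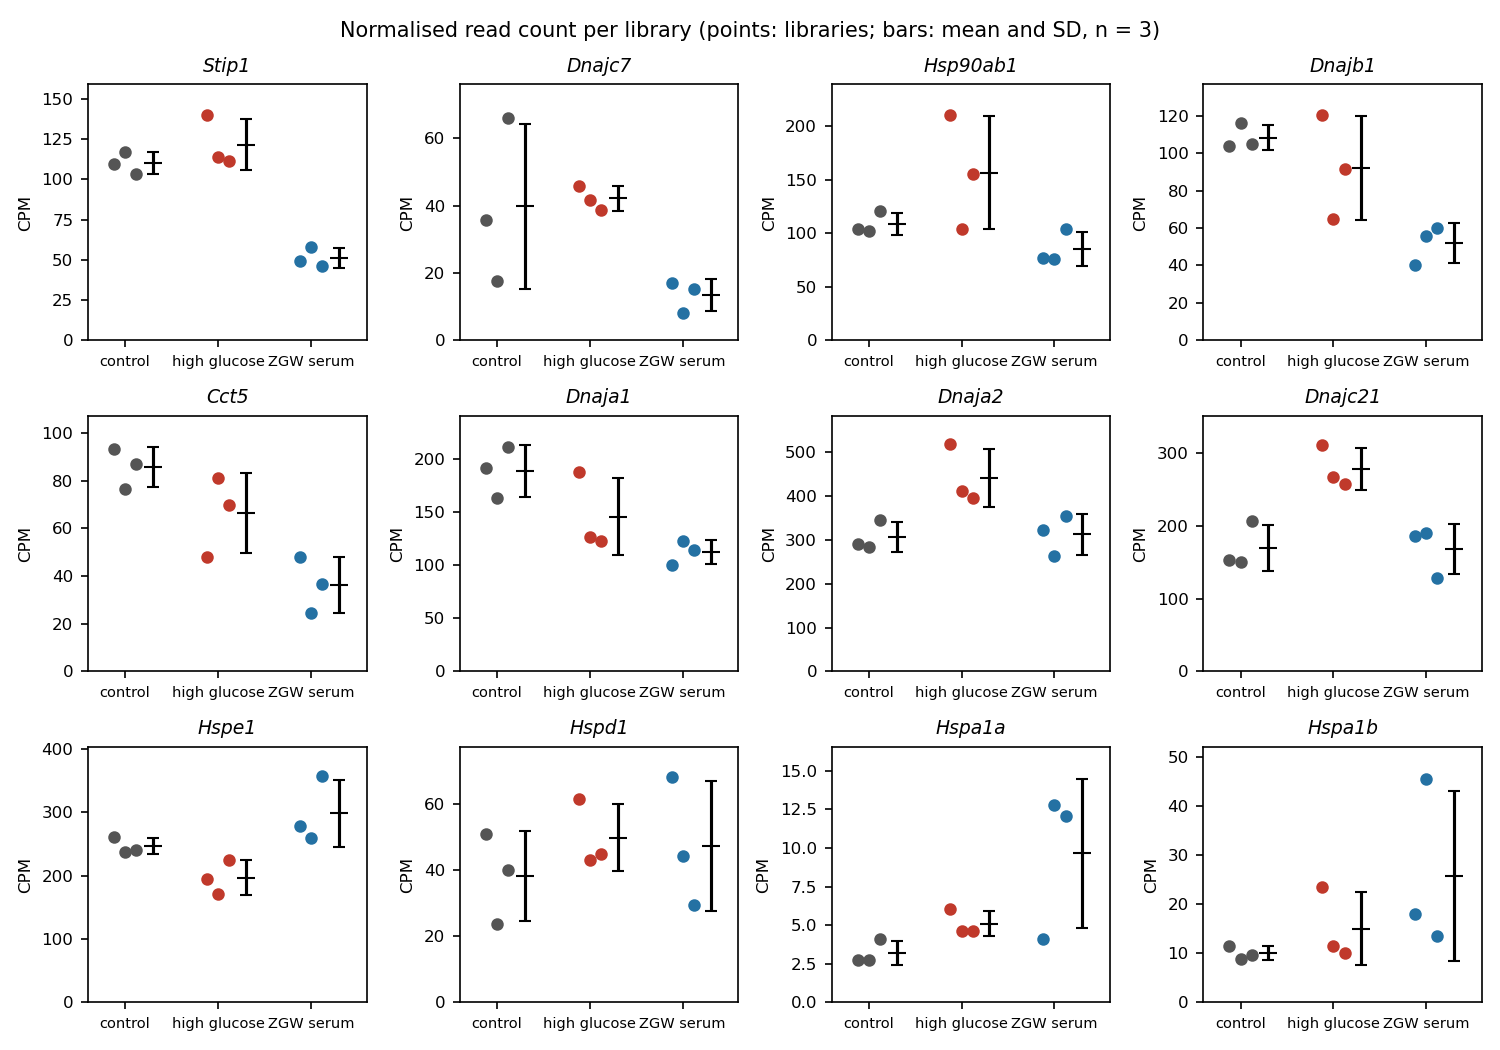
Normalised read count (CPM, axes from 0) of 12 chaperone genes in each library by group, with the mean and SD of 3 libraries beside the points. The ZGW serum libraries lie below all others for Stip1, Dnajc7, Dnajb1 and Dnaja1, and the high glucose libraries lie above all others for Dnaja2 and Dnajc21.

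ZGW serum was also compared with control, to see how treated embryos stood beside embryos with no glucose load. Stip1 was 2.15-fold, Dnajb1 2.08-fold, Dnajc7 2.96-fold and Cct5 2.36-fold lower, while the inducible Hsp70 genes Hspa1a and Hspa1b were higher. By count over its tested genes the set was balanced, with 34 of 74 higher and 40 lower and a median log2 fold change of -0.02. Over all genes 50% were lower, with a median of 0.00. Without ZGW serum replicate 2 the median of the set was -0.26, with 51 of 78 genes lower. Among genes averaging 10 CPM or more, 60.8% of 51 chaperone genes were lower (median -0.16), beside 54.3% of 7535 genes (median -0.08). The ZGW serum libraries are the same as in the comparison with high glucose, so the values do not stand apart from it.

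Here the edgeR quasi-likelihood test after Benjamini-Hochberg adjustment called 0 of 74 chaperone genes (background 0%). At an unadjusted p under 0.05, 8 were lower (10.8%, background 5.65%), namely Cct5, Dnaja1, Dnajb1, Dnajc1, Dnajc7, Dnajc9, Hspb1 and Stip1, and 2 were higher (2.7%, background 4.21%), Hspa1a and Hspa1b. The groups did not overlap for 9 genes that were lower (12.2%, background 7.3%) and 6 that were higher (8.11%, background 9.02%). DESeq2 called 4 chaperone genes, each lower, among 348 genes called (background 2.4%): Stip1 (DESeq2 adjusted p = 0.000422), Cct5 (0.0229), Dnajb1 (0.0356) and Hspb1 (0.0408). By limma-voom 0 chaperone genes were called (background 0.00589%). At an unadjusted p under 0.05, DESeq2 gave 14 of 73 (19.2%, background 13.5%) and limma-voom 9 of 74 (12.2%, background 8.64%).

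For Stip1, the log2 fold change over control was -1.10 ± 0.25 (edgeR adjusted p = 0.338). Cct5, a subunit of TRiC on chromosome 15 (chr15:31590800-31601804), was at 93.3, 76.6 and 87.1 CPM in control, 48.0, 81.2 and 70.0 in the glucose group and 48.0, 24.4 and 36.5 in the serum group. Control lay above ZGW serum without overlap, and high glucose overlapped with both (log2 fold change -1.24 ± 0.34, edgeR adjusted p = 0.385). Dnajb1, the J-domain protein best known as Hsp40 and itself a heat shock gene, lies on chromosome 8 (chr8:83608193-83612653). It was at 104, 116 and 105 CPM in control, 120.2, 64.7 and 91.7 in the glucose group and 40.1, 55.5 and 60.3 in the serum group. ZGW serum lay below both other groups without overlap (log2 fold change over control -1.06 ± 0.30, edgeR adjusted p = 0.402).

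Dnaja1, an Hsp70 partner that is also farnesylated, was at 192, 163 and 212 CPM in control, 188, 126 and 123 in the glucose group and 100.3, 122.9 and 115 in the serum group. The ZGW serum libraries were below the others, by a margin of under 1 CPM between ZGW serum replicate 2 and high glucose replicate 3 (122.9 and 123.2 CPM). Its log2 fold change over control was -0.75 ± 0.26. Dnajc9, a chaperone of histones, was at 60.3, 77.7 and 66.5 CPM in control and 20.6, 45.0 and 21.5 in the serum group (-1.23 ± 0.39). The small heat shock protein Hspb1 was at 17.4, 10.3 and 7.53 CPM in control and 2.53, 3.35 and 1.07 in the serum group (-2.34 ± 0.79).

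Hspa1b, on chromosome 17 (chr17:34956436-34959238), was at 11.5, 8.80 and 9.57 CPM in control, 23.5, 11.4 and 10.1 in the glucose group and 18.1, 45.4 and 13.5 in the serum group. Each ZGW serum library was above each control library, and 1 of them was far above the rest. The log2 fold change of 1.37 ± 0.58 (edgeR adjusted p = 0.483) was 0.63 without ZGW serum replicate 2. Hspa1a, its near-identical neighbour, was at 4.10, 12.8 and 12.1 CPM in the serum group, a log2 fold change of 1.59 ± 0.69 over control. Reads of this pair of genes may be split or joined by the counting, which is not given in the sources used here. Dnajc13, a J-domain protein of endosomes, was at 17.2, 30.6 and 27.1 CPM in control and 44.1, 37.6 and 49.3 in the serum group (0.81 ± 0.42, edgeR adjusted p = 0.56, and 0.52 without both control replicate 1 and ZGW serum replicate 3). Hspb11, now known as a subunit of the transport machinery of cilia, was at 8.68, 7.46 and 10.7 CPM in control and 23.0, 18.0 and 12.9 in the serum group (1.00 ± 0.59, edgeR adjusted p = 0.601).

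**Figure D4:**
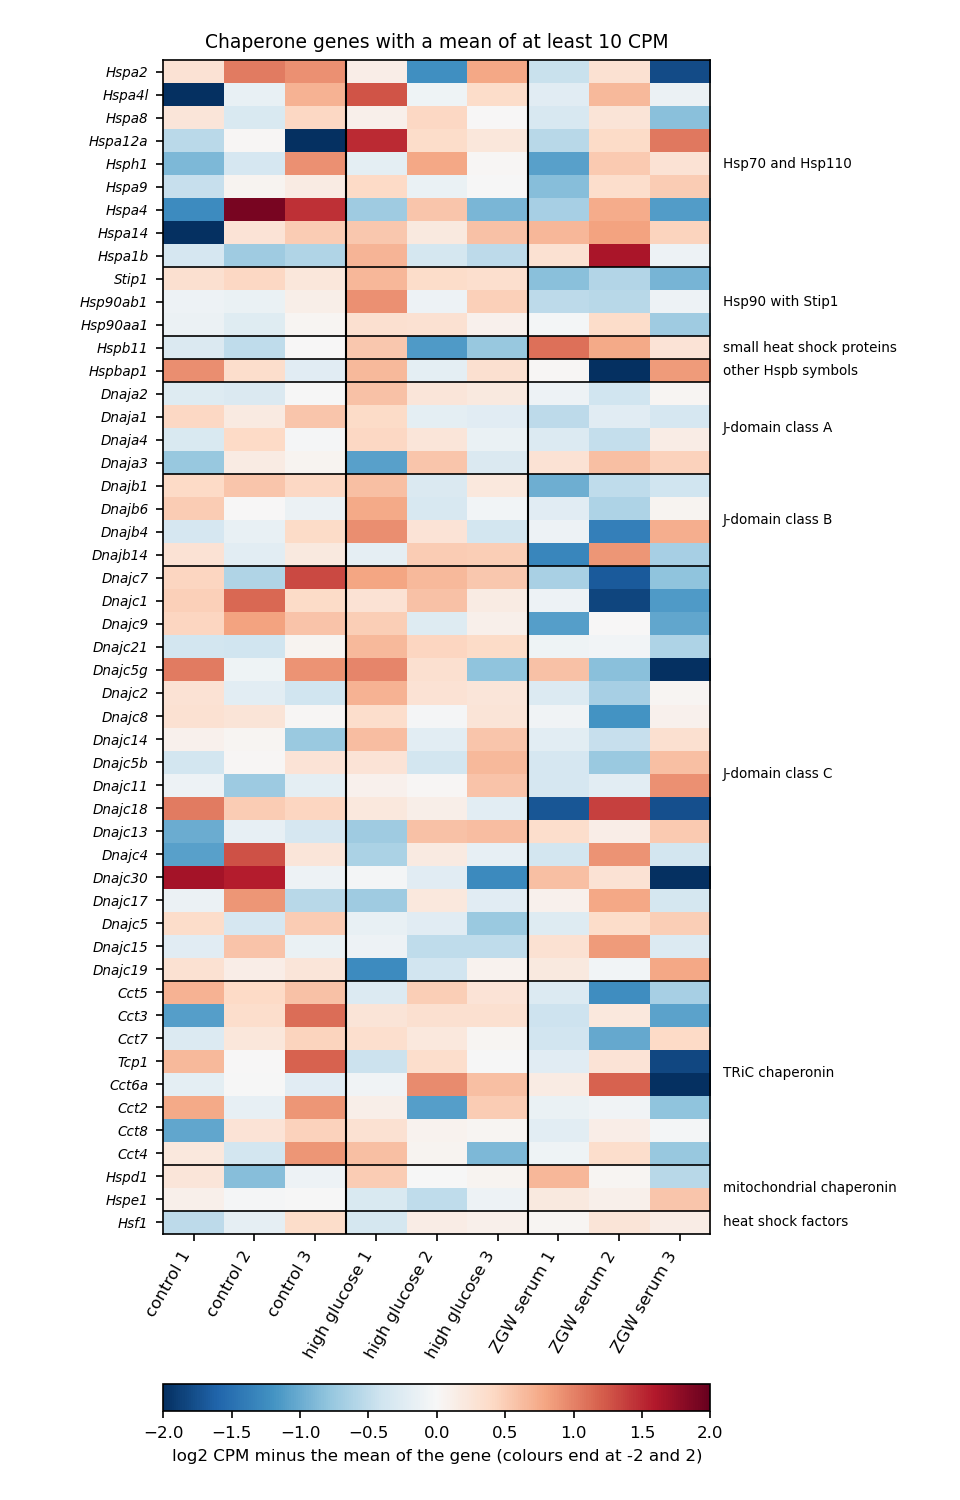
Deviation of each library from the gene's mean on the log2 CPM scale for the 51 chaperone genes averaging 10 CPM or more, with genes in rows by family, libraries in columns by group, red for higher and blue for lower. The 3 serum cells of Stip1 are blue, and single libraries stand out in genes such as Tcp1 and Cct6a of serum replicate 3.

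The 8 genes with too few counts for a test were Cct8l1, Dnajb3, Dnajb8, Dnajc24, Dnajc6, Hspa12b, Hspb3 and Hspb9, with means up to 0.751 CPM. Dnajc24, a J-domain protein of diphthamide synthesis, was at 3.33 and 3.08 CPM in high glucose replicates 1 and 2 and at or below 0.106 CPM in every other library. Genes tested at low levels had wide errors, such as Dnajb2 with a log2 fold change of 3.07 ± 1.51 between ZGW serum and control, from 0, 0.82 and 0.512 CPM to 1.5, 1.06 and 8.80 CPM. Hspbp1, an exchange factor of Hsp70, was at 1.53, 6.26 and 1.75 CPM in control and 0.378, 0.616 and 0.326 in the glucose group (-2.83 ± 0.94).

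Partners of the chaperones outside the symbol rule were described from lists. For ZGW serum against high glucose, 19 of 28 tested Hsp90 co-chaperones were lower (67.9%, median -0.27). So were 9 of 14 Hsp70 exchange factors and degradation partners (64.3%, -0.22) and 9 of 14 chaperones of the endoplasmic reticulum (64.3%, -0.21). Over all genes tested 49.9% were lower (median 0.00). Of genes averaging 10 CPM or more 59.7% were lower (-0.14), a share near those of these lists. Of 9 mitochondrial chaperones and proteases outside the rule 9 were lower (-0.70), among them Trap1, the Hsp90 of mitochondria, at -1.27 ± 0.82, while Hspe1 was higher. Prefoldin subunits hand actin and tubulin to TRiC. Their list, joined with chaperonin partners and tubulin cofactors, leaned the other way, with 12 of 18 higher (66.7%, median 0.43). Tbca, a tubulin cofactor, had a mean of 203 CPM in the glucose group and 397 in the serum group (0.97 ± 0.29). The other tubulin cofactors tested were at -0.20 for Tbcb, 0.17 for Tbcc, -1.26 for Tbcd and -0.05 for Tbce. By the edgeR quasi-likelihood test after Benjamini-Hochberg adjustment 0 genes passed in these lists.

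Sugt1, a co-chaperone of Hsp90, was at a mean of 207 CPM in the glucose group and 125 in the serum group (-0.73 ± 0.30), and St13, which holds Hsp70 bound to its client, at 118 and 75.5 CPM (-0.64 ± 0.31). Fkbp5, also an Hsp90 co-chaperone, went the other way without overlap, at 98.6 and 161 CPM (0.71 ± 0.32). Grpel1, the exchange factor of mitochondrial Hsp70, was at 32.2 and 58.9 CPM (0.87 ± 0.32). The most abundant co-chaperone was Ptges3, known as p23, at 5378 CPM in control, 4810 in the glucose group and 2796 in the serum group, where the libraries ranged from 1288 to 5318 CPM and overlapped with the rest. Among other genes of the heat shock response 10 of 15 tested were higher in the serum group than in the glucose group (66.7%, median 0.26). Over all genes tested 50.1% were higher. The germ cell factor Hsf5 was lower, at means of 197 and 81.9 CPM (-1.27 ± 0.46), and Hsfy2 was higher, at 5.89 and 17.5 CPM (1.57 ± 0.57).

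For high glucose against control, 17 of 28 Hsp90 co-chaperones were higher (median 0.07), 8 of 14 Hsp70 partners (0.28) and 9 of 14 chaperones of the endoplasmic reticulum (0.11). Of the mitochondrial list 4 of 9 were higher (-0.04). Lower were 13 of 18 genes of the list with prefoldin and tubulin cofactors (-0.23) and 10 of 15 other heat shock genes (-0.45). Over all genes tested 51% were lower (median -0.02), and 45.9% of those averaging 10 CPM or more (0.06). Egr1, an immediate early gene, had means of 34.4 and 12.3 CPM (-1.48 ± 0.43). For ZGW serum against control the medians were -0.02, -0.21, -0.06, -0.77, 0.16 and -0.33 in the same order of lists. The median was 0.00 over all genes tested and -0.08 over those averaging 10 CPM or more.

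Across 16277 genes with an exon length, the log2 fold change moved weakly with length, with a Spearman correlation of 0.177 for high glucose against control, -0.135 for ZGW serum against high glucose and 0.0222 for ZGW serum against control. Genes are not independent, and the chaperone genes were close to all genes in median length, at 3979 and 3714 exon bases. The part of length in the differences above was not tested. Levels in CPM are relative to library size and do not measure the amount of RNA per embryo.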

How the data were processed

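For each of 9 libraries the authors deposited whole-number read counts by gene symbol, not normalised. Per the submitters' processing notes, Trim Galore and mm10 were used. Aligner, counter, annotation, strand and multiple matches: not given in the sources used here. Groups and replicate numbers came from the labels. Library totals, from 11934924 to 16916343, limit the precision of low genes.

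Differences were tested by quasi-likelihood in edgeR 4.0.16 under R 4.3.3, using TMM factors, a minimum count of 10 in edgeR's filter, robust estimation and 1 mean per group over all 9 libraries, fitted on the whole table with Benjamini-Hochberg adjustment over 16964 genes and calls at 0.05. Common dispersion gave a biological coefficient of variation of 0.731. Errors of fold changes are standard errors of that fit. With separate cultures or matings not stated, p-values measure the spread between these libraries only. A group difference of a single value over 3 against 3 libraries cannot go below an exact permutation p of 0.1, so none is given.

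Other settings tried were DESeq2 1.42.0, RLE factors, limma 3.58.1 (voom, quality weights), no filter, at least 10 counts in 6 libraries, a fit on 2 groups only, replicate number as block, each library left out in turn, and control replicate 1 and ZGW serum replicate 3 left out together. The script of this test was checked on simulated counts. The members and lists were chosen with earlier results of these data known.

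Named genes are 32 genes chosen by role and, in each comparison, the 5 of lowest p-value each way that average 10 CPM or more. The first 3 of these each way have every library's value printed. Dnajc4, Dnajc5b, Dnajc8, Dnajc24, Dnajb2, Hspbp1 and partner genes of low p-value or high level were singled out after their values were seen. GENCODE (GRCm38, the assembly that mm10 denotes) gave positions and exon lengths. Shared sequence is the percent of 50-base stretches of a gene's transcripts found in transcripts of other genes. Promoters came from RefSeq.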

Additional observations from a re-analysis of the deposited data

How the results depend on the processing

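Across the alternatives, 49 of 51 counts of called chaperone genes stayed at 0. The exceptions were DESeq2, with 1 call for ZGW serum against high glucose and 4 for ZGW serum against control, and the cause was not tested. Median log2 fold changes moved by less than the spread between libraries in 47 of 51. For ZGW serum against high glucose the median was -0.099 without both outlying libraries, control replicate 1 and ZGW serum replicate 3, and from -0.374 to -0.108 with 1 library left out, the highest without ZGW serum replicate 3. For ZGW serum against control it was -0.234 by limma-voom and from -0.260 to 0.026 with 1 library left out. For high glucose against control it ran from -0.098 to 0.069. The longer heat shock motif gave 6.06% of promoters and the shorter motif 30.3%. Of the values for single genes, 2083 moved by less than the spread or kept their side of the threshold, 4 moved by more (Hspb11 for high glucose against control to -0.706 without high glucose replicate 1, and against control in the serum group Cct7 to -0.988 and Hspb1 to -1.573 without both outlying libraries and Dnajc9 to -1.725 without ZGW serum replicate 2), and 4 passed the threshold by DESeq2 (Stip1 in both comparisons with ZGW serum, and Cct5 and Dnajb1 against control). Hspb1 against control also passed by DESeq2 (DESeq2 adjusted p = 0.0408), but it was judged by spread alone and so is counted among the 2083. The fit with the replicate number as a block (replicate block) gave medians of 0.022, -0.336 and -0.031 and 0 calls in each comparison. Residuals of libraries with the same number correlated between -0.0065 and 0.104 and those of other pairs between -0.095 and 0.0458, so the numbers were not taken to pair the libraries. Depth limits the genes below 1 CPM, of which a library holds under 20 reads.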
